A study of Mus musculus with 10 samples.

Results

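The genes described here are 10 genes that define the work of the mouse Leydig cell: Insl3, Star, Cyp11a1, Cyp17a1, Hsd3b1, Hsd3b6, Hsd17b3, Lhcgr, Nr5a1 and Scarb1. They were chosen by name for their roles, with earlier results of these data known, and all 10 were present among the 28125 genes of the scRNA-seq matrix and the 30670 genes of the scATAC-seq matrix. Leydig cells sit between the seminiferous tubules and make androgen from cholesterol under the control of luteinizing hormone. Cholesterol enters through the receptor SCARB1, is moved into the mitochondrion by STAR, is cut to pregnenolone by CYP11A1 and is then turned into testosterone by 3-beta-hydroxysteroid dehydrogenases (HSD3B1 and HSD3B6), CYP17A1 and HSD17B3. LHCGR is the receptor for luteinizing hormone, NR5A1 is the nuclear receptor that drives the steroidogenic genes, and INSL3 is the peptide hormone that the same cells secrete.

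The study took nuclei from mouse testis and measured RNA and open chromatin together in each nucleus. There were 5 libraries per assay, 1 for each condition. Wild-type testes were taken at 11, 17 and 25 days post-partum (dpp). At 8 weeks, Nfya-CKO testes, in which Stra8-Cre deletes floxed Nfya in germ cells, were set beside Cre/+ testes, which carry the Cre alone. The Cre is driven in germ cells, so somatic cells of the Nfya-CKO testis were not targeted. Nfya RNA was 1.11 per 10000 in Nfya-CKO spermatogonia and 0.456 in undifferentiated spermatogonia, so the level of this transcript gave no check of the labels, and Nfya-CKO here means the library labelled so.

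Values come as 1 mean per population over all libraries, for 13 populations: spermatogonia that are undifferentiated (undiff. SpG) or differentiating (diff. SpG), preleptotene (pL), early leptotene to zygotene (eL/L/Z), leptotene to early pachytene (L/Z/eP), middle and late pachytene (mP/lP) and diplotene (D) spermatocytes, round (RS) and elongating (ES) spermatids, Sertoli cells, unknown cells, Nfya-CKO spermatogonia (SpG Nfya-CKO) and other somatic cells. RNA levels are given per 10000 UMIs. With no replicate of any population, all differences below are differences in size between pooled columns, without a test or an SD. A mean over a population cannot tell many cells with little RNA from few cells with much.

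The other somatic population held 5883 cells, of which 4633 (78.8%, exact 95% interval 77.7 to 79.8% for counting error) came from the Nfya-CKO library, 341 from Cre/+, and 251, 142 and 513 from the wild type at 11, 17 and 25 dpp. It joined 6 clusters. Clusters 11, 25 and 28 gave 3129 cells with median counts of only 877 to 1250 UMIs, whereas cluster 18 gave 1136 cells with a median of 15720 UMIs and 53.3% of the UMIs of the population. Every cell entered the mean with equal weight, whatever its depth.

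The 8-week libraries shared barcodes. Of the 5152 Nfya-CKO cells, 3813 (74.0%) carried a barcode that was also a cell in the Cre/+ library, whereas no wild-type library shared more than 19 barcodes with either 8-week library. The wild-type libraries shared 621 to 853 barcodes with each other. Among the 3813 shared barcodes, 2653 had fewer UMIs in the Nfya-CKO library, with a median ratio of 0.0777, and 1160 had more, with a median ratio of 9.52. Only 2 lay between 0.5 and 2. In the other somatic population, 2647 of the 4633 Nfya-CKO cells were the shallower copy, and for 2618 of these the deeper Cre/+ copy was named a germ cell. In all, shallower copies of either library made up 2941 of the 5883 cells of the column (49.99%). The matrix is pooled, so the levels below could not be recomputed without these cells, and their part in any level was not tested. In scATAC-seq the same libraries shared 92 barcodes, or 0.617% of the Nfya-CKO nuclei.

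**Figure D1:**
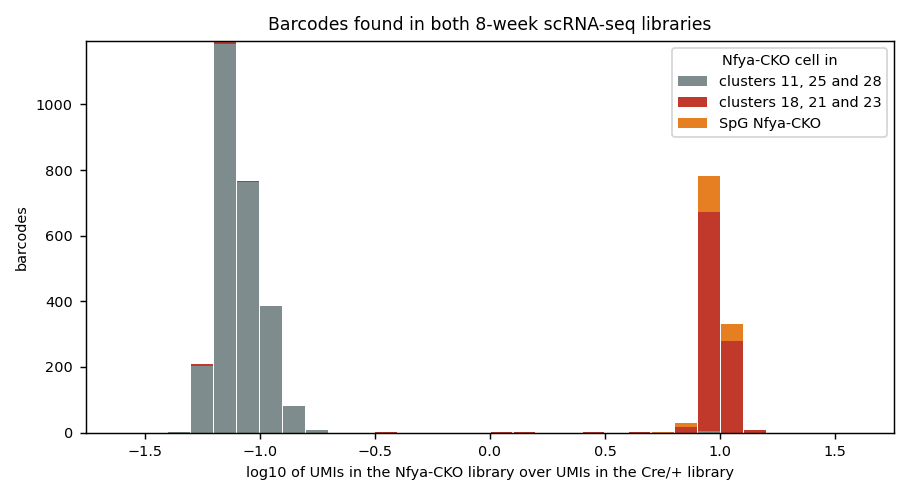
Number of barcodes found in both 8-week scRNA-seq libraries, by the log10 of UMIs in the Nfya-CKO library over UMIs in the Cre/+ library, coloured by the cluster or population of the Nfya-CKO cell. The barcodes fall into 2 separate groups, near a ratio of 0.0777 (clusters 11, 25 and 28) and near 9.52 (clusters 18, 21 and 23 and SpG Nfya-CKO).

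On the GRCm38 annotation, Insl3 (ENSMUSG00000079019.2, chr8:71689214-71690575, plus strand) lies inside Jak3, a kinase gene on the same strand. The second exon of Insl3 (chr8:71690172-71690575, 404 bases) has the same coordinates as exon 25 of a Jak3 transcript, so reads in it fit both genes. Star lies at chr8:25806555-25815982 (plus), Cyp11a1 at chr9:58006411-58027023 (plus), Cyp17a1 at chr19:46667165-46673172 (minus), Hsd17b3 at chr13:64058266-64089230 (minus) and Lhcgr at chr17:88716481-88791990 (minus). Hsd3b6 (chr3:98805504-98814443) and Hsd3b1 (chr3:98852194-98859794) are neighbours on the minus strand of chromosome 3. Nr5a1 lies at chr2:38692656-38714542 (minus) and overlaps its antisense gene Nr5a1os, which was listed at 0.0157 in other somatic cells. Scarb1 lies at chr5:125277087-125341094 (minus). Cyp11a1 overlaps the lincRNA gene Gm17322 on its own strand, which was listed at 0.0252 in other somatic cells, and Scarb1 overlaps Gm42633, not analysed here.

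Promoter windows from RefSeq (GRCm38.p6, 250 bases before to 50 after a start) were found for 6 of the 10 genes: Insl3, Cyp11a1, Hsd3b1, Hsd3b6, Hsd17b3 and Lhcgr. There was no window for Star, Cyp17a1, Nr5a1 and Scarb1. Both strands were searched for AGGTCA, the core of the site that NR5A1 binds, and for CCAAT, the core of the site that NF-Y binds. Cyp11a1 has windows at 2 starts, which makes 7 windows. AGGTCA was in 2 of them (Lhcgr and the second start of Cyp11a1), against 16.3% of all 32851 windows of this length, and CCAAT in 2 (Hsd3b1 and the first start of Cyp11a1), against 37.4%. The stretches before the first annotated exon are shown for Insl3, whose RNA and chromatin values both peak in other somatic cells, and for Hsd3b1 and Lhcgr, which hold a match. Capitals mark CCAAT in Hsd3b1 and AGGTCA in Lhcgr, and neither motif is in the Insl3 window. A match describes the letters only.
Insl3, chr8:71689002-71689213, plus strand, between exons 24 and 25 of that Jak3 transcript: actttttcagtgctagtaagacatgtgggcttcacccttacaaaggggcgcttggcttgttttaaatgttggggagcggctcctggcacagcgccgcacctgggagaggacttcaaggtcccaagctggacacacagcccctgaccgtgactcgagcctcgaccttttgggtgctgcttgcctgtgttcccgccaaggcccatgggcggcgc
Hsd3b1, chr3:98859795-98860044, minus strand: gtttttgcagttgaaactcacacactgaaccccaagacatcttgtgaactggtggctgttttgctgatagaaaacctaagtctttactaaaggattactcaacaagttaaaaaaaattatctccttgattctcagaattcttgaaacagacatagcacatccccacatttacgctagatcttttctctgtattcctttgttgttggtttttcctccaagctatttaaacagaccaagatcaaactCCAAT
Lhcgr, chr17:88792015-88792264, minus strand: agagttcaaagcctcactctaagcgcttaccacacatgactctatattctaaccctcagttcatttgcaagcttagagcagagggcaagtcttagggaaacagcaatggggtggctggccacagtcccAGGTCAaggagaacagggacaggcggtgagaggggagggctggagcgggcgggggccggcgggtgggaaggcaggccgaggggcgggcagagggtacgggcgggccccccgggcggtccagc

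RNA of 9 of the 10 genes was highest in other somatic cells, against 6.77% of the 15250 genes with a mean level of at least 0.05. The exception was Scarb1. All 10 genes reached that mean, Lhcgr only through its level in other somatic cells. For 8 of the 10 the level, plus a pseudocount of 0.1 as in all RNA ratios here, was at least 2-fold above that of every other population, against 0.931% of genes. Those 8 were Insl3, Star, Cyp11a1, Cyp17a1, Hsd3b1, Hsd3b6, Lhcgr and Nr5a1, and the same 8 were at least 2-fold above Sertoli cells, which was the case for 15.4% of genes. With a pseudocount of 1, Hsd3b1, Lhcgr and Nr5a1 no longer reached 2-fold, and 5 genes were left. The median log2 ratio of other somatic over Sertoli cells was 3.58 for the 10 genes and 0.22 for all genes.

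Insl3 RNA, the peptide hormone, was 177.5 per 10000 in other somatic cells, that is, on average 1.77% of the UMIs of a cell. The next levels were 39.8 in SpG Nfya-CKO, 20.5 in unknown cells and 3.81 in ES. It was 0.0640 in undiff. SpG, 0.893 in diff. SpG, 0.0227 in pL, 0.104 in eL/L/Z, 0.165 in L/Z/eP, 0.174 in mP/lP, 0.486 in D, 0.527 in RS and 0.0176 in Sertoli cells. With the pseudocount of 0.1, the level in other somatic cells was 4.45-fold that of SpG Nfya-CKO and 1510-fold that of Sertoli cells. The pseudocount sets the second fold, as the Sertoli level lies below it, at 0.00992% of that in other somatic cells. Jak3 was listed at 177.5 in other somatic cells, 39.8 in SpG Nfya-CKO and 0.0221 in Sertoli cells, and in all 13 populations it exceeded Insl3 by 0.00192 to 0.130. Read counts in the matrix therefore do not separate the 2 genes, and the Insl3 values hold only as far as the reads belong to Insl3.

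Of the genes for cholesterol handling, Star, which carries cholesterol to the inner mitochondrial membrane, was at 4.18 in other somatic cells, 1.03 in SpG Nfya-CKO, 0.905 in ES, 0.666 in unknown cells and 0.241 in Sertoli cells. Its level in the other 8 germ cell populations was 0.0628 in RS to 0.145 in pL. Scarb1, the receptor for high-density lipoprotein, followed another order: 4.55 in Sertoli cells, 4.45 in unknown cells and 2.97 in other somatic cells. The next levels of Scarb1 were 2.52 in RS, 2.31 in ES, 1.63 in pL and 1.52 in SpG Nfya-CKO. Its lowest level was 0.473, in mP/lP. Scarb1 was therefore the gene spread most widely over the populations, with other somatic cells holding 11.4% of its summed level, compared with 34.8 to 73.5% for the other 9 genes.

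Cyp11a1, the side chain cleavage enzyme that commits cholesterol to steroids, was at 3.94 in other somatic cells, 0.876 in unknown cells and 0.829 in SpG Nfya-CKO. Sertoli cells were at 0.0553 and the 9 control germ cell populations at 0.0182 (mP/lP) to 0.138 (ES). Cyp17a1, the 17-alpha-hydroxylase and lyase, was at 31.2 in other somatic cells, 7.39 in SpG Nfya-CKO, 3.26 in unknown cells, 0.809 in ES and 0.218 in diff. SpG, down to 0.00550 in pL. Both genes had the same 3 leading populations, in another order, and the range of Cyp17a1 was the wider.

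The 3-beta-hydroxysteroid dehydrogenase genes shared their peak. Hsd3b6 was at 7.78 in other somatic cells, 1.77 in SpG Nfya-CKO, 0.600 in unknown cells and 0.263 in ES, with 0.00128 in Sertoli cells. Hsd3b1 was at 1.44 in other somatic cells, 0.329 in unknown cells, 0.236 in SpG Nfya-CKO, 0.0384 in ES and 0.0365 in Sertoli cells. In their longest transcripts, 2.10% of the 50-base windows of Hsd3b1 also occur in Hsd3b6, and 16.0% of those of Hsd3b6 occur in any of 5 related Hsd3b transcripts. A read that lies wholly in such a window fits more than 1 gene, whereas a longer read can still be unique. Hsd17b3, which makes testosterone from androstenedione, was at 1.61 in other somatic cells and 0.819 in Sertoli cells, a ratio of 1.86. It was at 0.374 in SpG Nfya-CKO and 0.259 in unknown cells, and its control germ cell levels lay between 0.0140 (L/Z/eP) and 0.0718 (eL/L/Z).

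Lhcgr, the receptor for luteinizing hormone, was at 0.457 in other somatic cells, 0.0914 in SpG Nfya-CKO and 0.0782 in unknown cells. Its levels in control germ cells and Sertoli cells lay between 0.00212 and 0.0161. The value of undiff. SpG (0.00212) was below 3 UMIs per pooled UMIs of that population (0.00218). As the levels weigh cells equally, this limit is only approximate. Nr5a1 was at 3.10 in other somatic cells, 1.46 in Sertoli cells, 1.11 in unknown cells, 1.01 in ES and 0.718 in SpG Nfya-CKO. Its ratio of other somatic over Sertoli cells, 2.05, was just inside the 2-fold limit, and that of Hsd17b3 just outside.

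**Figure D2:**
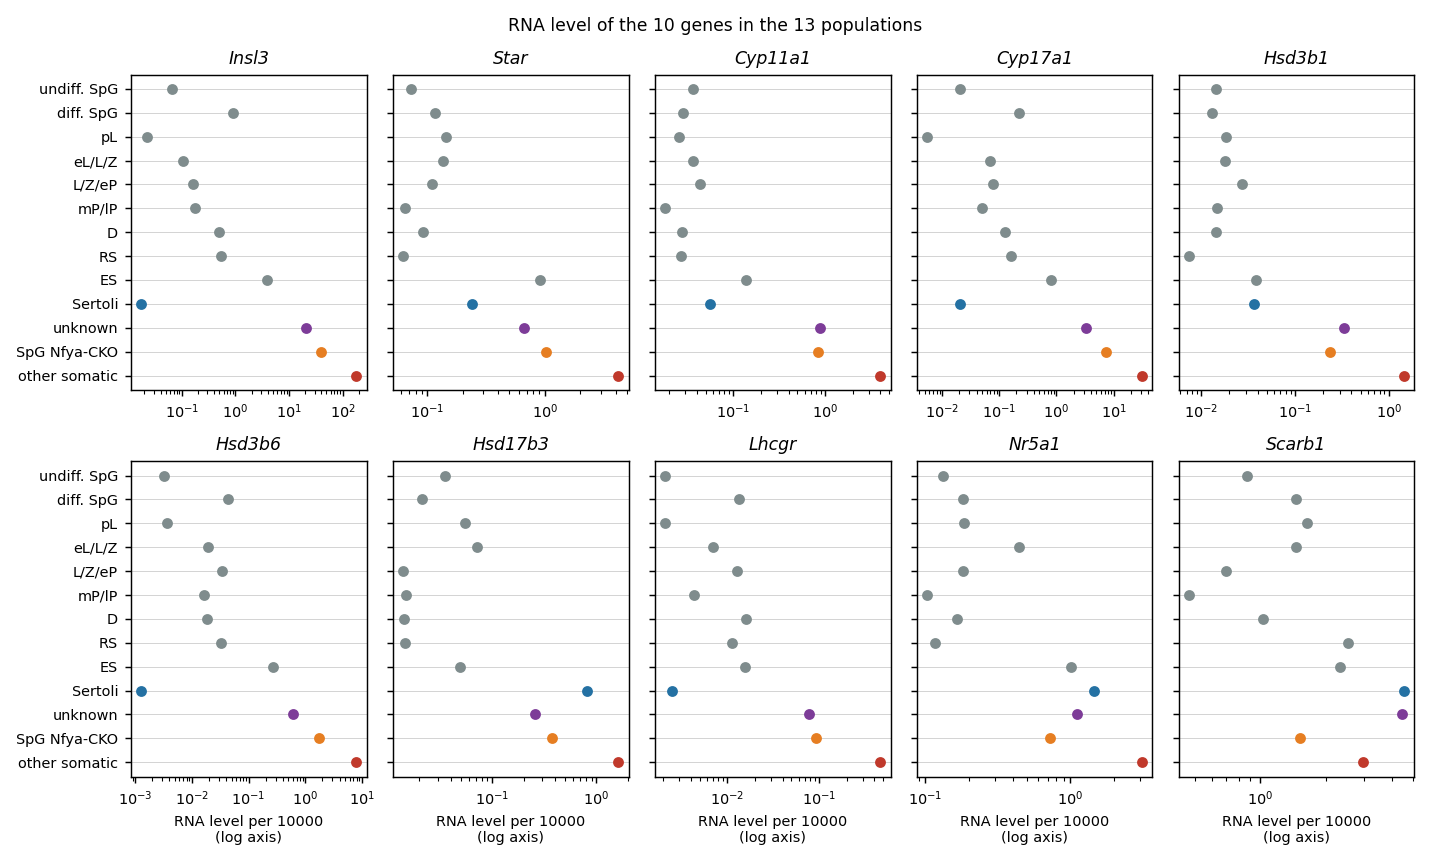
RNA level per 10000 UMIs (log axis, 1 panel per gene) in the 13 populations; each point is 1 pooled mean. Other somatic cells (red) are the highest in 9 panels, Scarb1 is highest in Sertoli cells (blue), and SpG Nfya-CKO (orange) lie above the 8 germ cell populations before ES in every panel except Scarb1.

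Spermatogonia were compared next, since the Nfya-CKO column holds 491 cells of 1 library and the undiff. SpG column 1292 cells, of which 50% came from 11 dpp, 7.89% from Cre/+ and 0.0774% from Nfya-CKO. Genotype, age and library cannot be told apart in this comparison. In SpG Nfya-CKO, 8 of the 10 genes were at least 2-fold above undiff. SpG, against 4.09% of genes, and the median log2 ratio was 2.26 against 0.01 for all genes. The ratios were 243 for Insl3, 62.0 for Cyp17a1, 18.1 for Hsd3b6, 6.81 for Cyp11a1, 6.53 for Star, 3.52 for Nr5a1, 3.51 for Hsd17b3 and 2.93 for Hsd3b1. Scarb1 (1.66) and Lhcgr (1.87) lay below 2. The pseudocount weighs on most ratios, as undiff. SpG lay below it for every gene except Nr5a1 (0.132) and Scarb1 (0.872). For Lhcgr both levels (0.0914 and 0.00212) lie below it. With pseudocounts of 0.01 and 1 the ratio was 538 and 38.3 for Insl3, and 241 and 8.22 for Cyp17a1. It was 12.5 and 1.89 for Star, and 18.1 and 1.77 for Cyp11a1. With a pseudocount of 0.01 the ratio was 8.37 for Lhcgr, 135 for Hsd3b6 and 1.73 for Scarb1, and 9 genes were at least 2-fold higher. With a pseudocount of 1 there were 3 (Insl3, Cyp17a1 and Hsd3b6).

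Expressed as a percent of the level in other somatic cells, 9 of the 10 genes lay between 16.3 and 24.6% in SpG Nfya-CKO. The value was 24.6% for Star, 23.7% for Cyp17a1, 23.3% for Hsd17b3, 23.2% for Nr5a1, 22.7% for Hsd3b6, 22.4% for Insl3, 21.1% for Cyp11a1, 19.998% for Lhcgr and 16.3% for Hsd3b1. Scarb1 was apart at 51.1%. Their median was 23.0%, whereas that of the 9845 genes with at least 0.2 in other somatic cells was 100.8%. Between 20 and 25% lay 7 of the 10 genes and 3.18% of all such genes; this band was chosen after the values were seen. In undiff. SpG the same percent varied far more, from 0.0361% for Insl3 to 29.4% for Scarb1, with a median of 0.966%, against 98.9% for all genes.

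The same percent was taken for further gene lists, and the Sertoli markers lay where the 10 genes did. Of the 13 Sertoli markers at 0.2 or more in other somatic cells, 10 fell in the same 20 to 25% band, with a median of 23.5% and a range from 17.7 to 45.5%. Clu was at 24.9%, Inha at 22.2% and Cldn11 at 23.4%. Of 13 other Leydig and stem Leydig markers at that level, only 3 fell in the band. Their median was 21.5%, from 2.77% for Igf1 to 285% for Lama5. Of 12 Leydig lineage transcription factors, 5 fell in it, with a median of 21.0% and a range from 4.43 to 50.9%. Peritubular myoid markers, which mark the contractile cells of the tubule wall, had a median of 5.71% over 4 genes, from 3.08% for Acta2 (smooth muscle actin) to 19.2% for Myl9 (a myosin light chain gene). The median was 61.4% over 3 endothelial markers and 40.5% over 4 macrophage markers. The 9 spermatid markers summed to 0.289 in SpG Nfya-CKO and to 7.35 in other somatic cells. Sertoli markers summed to 31.0 in SpG Nfya-CKO, 126.6 in other somatic cells, 127.9 in Sertoli cells and 7.99 in undiff. SpG. Clu made the sums of the somatic columns alike, with 91.5 in other somatic and 34.1 in Sertoli cells. Without Clu the other 13 markers summed to 35.2 and 93.8, and 11 of the 14 were highest in Sertoli cells. In SpG Nfya-CKO, spermatogonial markers summed to 29.8, against 39.7 in undiff. SpG. Uchl1 narrowed that gap, with 11.0 and 5.88, and without it the sums were 18.7 and 33.8. Of the 491 Nfya-CKO spermatogonia, 175 shared a barcode with a Cre/+ cell, and all 175 were the deeper copy. The part of any of these in the Leydig gene levels was not tested.

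**Figure D3:**
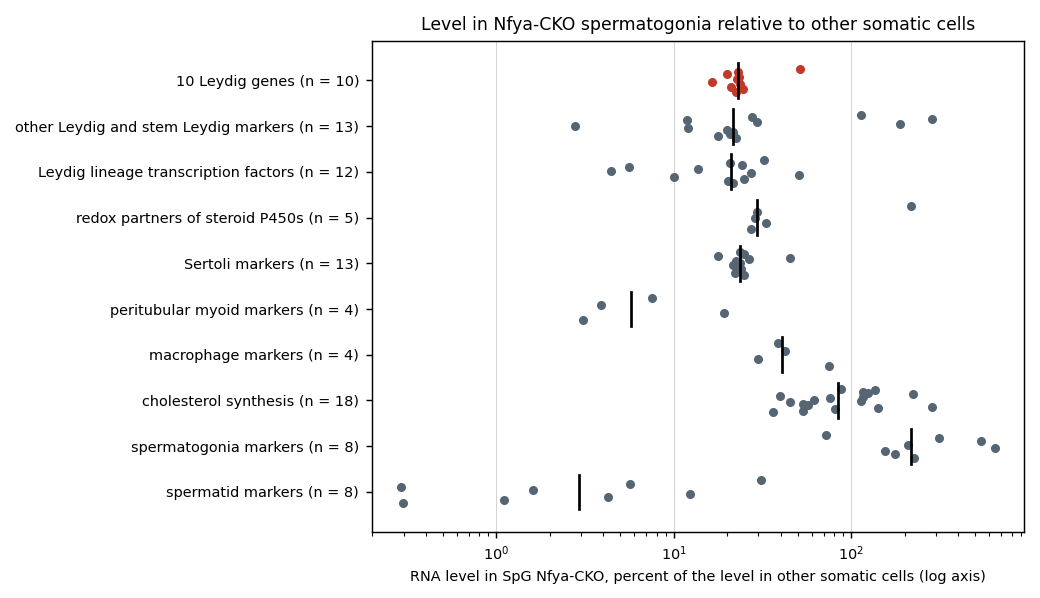
RNA level in SpG Nfya-CKO as a percent of the level in other somatic cells (log axis), for the 10 genes (red) and for genes of 9 further lists with at least 0.2 per 10000 in other somatic cells (grey); each point is 1 gene and each bar a median. The 10 genes and the Sertoli markers have medians of 23.0 and 23.5%, and the peritubular myoid markers 5.71%. The other Leydig and stem Leydig markers have a median of 21.5% but a wider spread.

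Among the 9 control germ cell populations, ES held the highest level of Insl3, Star, Cyp11a1, Cyp17a1, Hsd3b1, Hsd3b6 and Nr5a1. Hsd17b3 was highest in eL/L/Z, Lhcgr in D and Scarb1 in RS. In ES, levels were 2.15% of that in other somatic cells for Insl3, 2.59% for Cyp17a1, 3.38% for Hsd3b6 and 3.50% for Cyp11a1, but 21.6% for Star, 32.4% for Nr5a1 and 78.0% for Scarb1. Sertoli markers had a median of 63.6% there and summed to 52.8. Of the 1195 ES cells, 1190 came from the Cre/+ library, and 675 (56.5%) were the shallower copy of a barcode shared with the Nfya-CKO library. Cluster 18 of that library shared 668 barcodes with ES cells. In diff. SpG, the control germ cells with the next highest Insl3 level, 143 of 927 cells (15.4%) were such copies. In undiff. SpG, pL, eL/L/Z and mP/lP there were none, and Insl3 was at 0.0227 to 0.174. In D 0.965% and in RS 0.0410% of cells were such copies, with Insl3 at 0.486 and 0.527.

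Further genes of the pathway were counted from fixed lists, over the list genes with a mean of at least 0.05, so that the shares for all genes are again 6.77% (highest in other somatic cells) and 0.931% (at least 2-fold above every other population). Of 19 other steroid-converting enzymes in the matrix, 8 reached that mean, 2 of these were highest in other somatic cells and 1 was 2-fold above the rest. Akr1cl, an aldo-keto reductase gene, was at 5.73 there and 0.845 in Sertoli cells. Cyp19a1, the aromatase gene, was at 0.872 there but highest in mP/lP, at 9.19. Of the 5 redox partners of steroid P450 enzymes, 4 were highest in other somatic cells: the mitochondrial electron carriers Fdxr (2.66) and Fdx1 (1.31) and the cytochromes b5 Cyb5a (2.37) and Cyb5b (1.15). Fdxr and Fdx1 were at least 2-fold above every other population.

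Of 15 genes of uptake, transport and storage, 3 were highest in other somatic cells and none was 2-fold above all other populations. Soat1, which esterifies cholesterol, was at 2.78 there and 4.41 in Sertoli cells. Of 21 genes of cholesterol synthesis, 20 reached that mean, 6 were highest in other somatic cells and only Msmo1 (3.10, a sterol oxidase gene) was 2-fold above the rest. Of 16 genes of gonadotropin and cAMP signalling, 3 were highest there, and only the prolactin receptor gene Prlr (3.31, with 0.521 in SpG Nfya-CKO) was 2-fold above the rest.

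Of 15 Leydig lineage transcription factors, 12 reached that mean, and 4 of the 12 were highest in other somatic cells, among them the stromal factor Nr2f2 (1.98) and Tcf21, which reached the mean only through that column. Gata4 was at 2.97 there and 4.97 in Sertoli cells. Of 18 other Leydig and stem Leydig markers, 13 reached that mean, and of the 13, 8 were highest there and 6 were 2-fold above every other population. Ptgds, a prostaglandin D synthase gene, was at 52.3, Aldh1a1 at 18.5, Agt (angiotensinogen) at 5.99 and Fabp3 at 4.13. Mc2r and Crhr1, receptor genes of this list, were among those at or near 0 there. Of 6 genes in a list of steroid and INSL3 receptors, 3 reached that mean, and none of the 6 was highest in other somatic cells. Rxfp2, the INSL3 receptor gene, had its highest level in RS, at 0.232.

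The other somatic column held markers of several other cell types beside those of Leydig cells. Spermatogonial markers summed to 12.4 there, led by Uchl1 (4.87) and the germ cell gene Dazl (3.86), against 8.19 in Sertoli cells and 39.7 in undiff. SpG. Sertoli markers had a median log2 ratio of -1.42 over Sertoli cells, with Clu, Trf and Rhox5 highest in other somatic cells. Peritubular myoid markers summed to 8.33, against 2.62 in the 99 unknown cells, and 4 of the 5 that reached a mean of 0.05 were highest in other somatic cells. Macrophage markers summed to 2.01, against 2.14 in unknown cells, and 3 of the 4 that reached this mean were highest in other somatic cells, C1qb having reached it only through that column. Endothelial markers summed to 1.80, against 45.2 in unknown cells.

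Genes were also ordered by the distance of their profile over the 13 populations from the mean profile of the 10 genes (the sum of absolute differences over 2 in share, 0 for the same profile), among 10858 genes that reached 0.5 in any population. Among the 10 nearest were Gsta3 (0.0393), Ecm1, Serping1, Apoe, Ass1, Timp1, Tmem176b, Cd36 and Gpt2 (0.122). Gsta3, a glutathione transferase gene, was nearer to the mean than any of the 10 genes themselves, of which Star was nearest (0.0889) and Scarb1 farthest (0.512). Nearest to Insl3 were Jak3 (0.000743), Ptgds (0.0324) and Agt (0.0357). The points of each profile are 13 pooled columns that share libraries and barcodes.

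Chromatin values were compared on a scale of 1000000 per population over nuclear genes. The deposited columns also count 13 mitochondrial genes, which took from 31.2% (pL) to 64.5% (other somatic cells) of the sum, and these were left out. Other somatic cells were the highest of the 13 populations for 4 of the 10 genes (Insl3, Cyp17a1, Hsd3b1 and Nr5a1), against 6.29% of 29475 genes. They were at least 2-fold above undiff. SpG for 5 (Star, Cyp17a1, Hsd3b1, Hsd3b6 and Hsd17b3), against 6.41% of genes. The median log2 ratio of other somatic cells over undiff. SpG was 1.06 for the 10 genes and -0.01 for all genes. With the mitochondrial genes kept in the sum, the median for the 10 genes was 0.36 and only Insl3 and Cyp17a1 (2 genes) were highest in other somatic cells.

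Insl3 was at 26.7 in other somatic cells, with 13.8 in undiff. SpG, 13.6 in SpG Nfya-CKO, 12.4 in pL and 6.19 in Sertoli cells. Jak3, around it, was also highest in other somatic cells, at 37.7, with 22.0 in Sertoli cells, 20.8 in SpG Nfya-CKO and 16.5 in undiff. SpG, and whether the values of these overlapping genes count the same fragments was not tested. Cyp17a1 was at 15.5 in other somatic cells, 7.45 in RS and 6.43 in Sertoli cells, and was listed at 0 in unknown cells, a column of 54 nuclei. Hsd3b1 was at 4.69 in other somatic cells and 3.23 in RS. Nr5a1 was at 46.3 in other somatic cells, 44.5 in Sertoli cells, 44.1 in SpG Nfya-CKO and 38.2 in undiff. SpG, so its lead was small.

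The other 6 genes peaked elsewhere. Star was at 67.5 in Sertoli cells, 66.4 in unknown cells and 44.2 in other somatic cells. Hsd17b3 was at 35.5 in Sertoli cells and 13.4 in other somatic cells, and Scarb1 at 99.4 and 75.9. Lhcgr was at 23.1 in SpG Nfya-CKO, 15.7 in other somatic cells and 11.6 in undiff. SpG. Hsd3b6 was at 14.2 in ES, a column of 124 nuclei, and 4.48 in other somatic cells. Cyp11a1 was at 20.3 in pL and 16.3 in diff. SpG, and its 6.13 in other somatic cells ranked 12 of 13. Of the 9 genes whose RNA was highest in other somatic cells, 4 thus had their highest chromatin value there too, and 5 (Star, Cyp11a1, Hsd3b6, Hsd17b3 and Lhcgr) did not. Of all 1028 genes with RNA highest there and a chromatin value that passed the filter, 20.1% had their highest chromatin value there.

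By their chromatin, 1039 of the 1942 paired nuclei of the other somatic column were named Sertoli cells, and of the 1217 from the Nfya-CKO library 855 (70.3%) were. The chromatin column follows the RNA names.

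**Figure D4:**
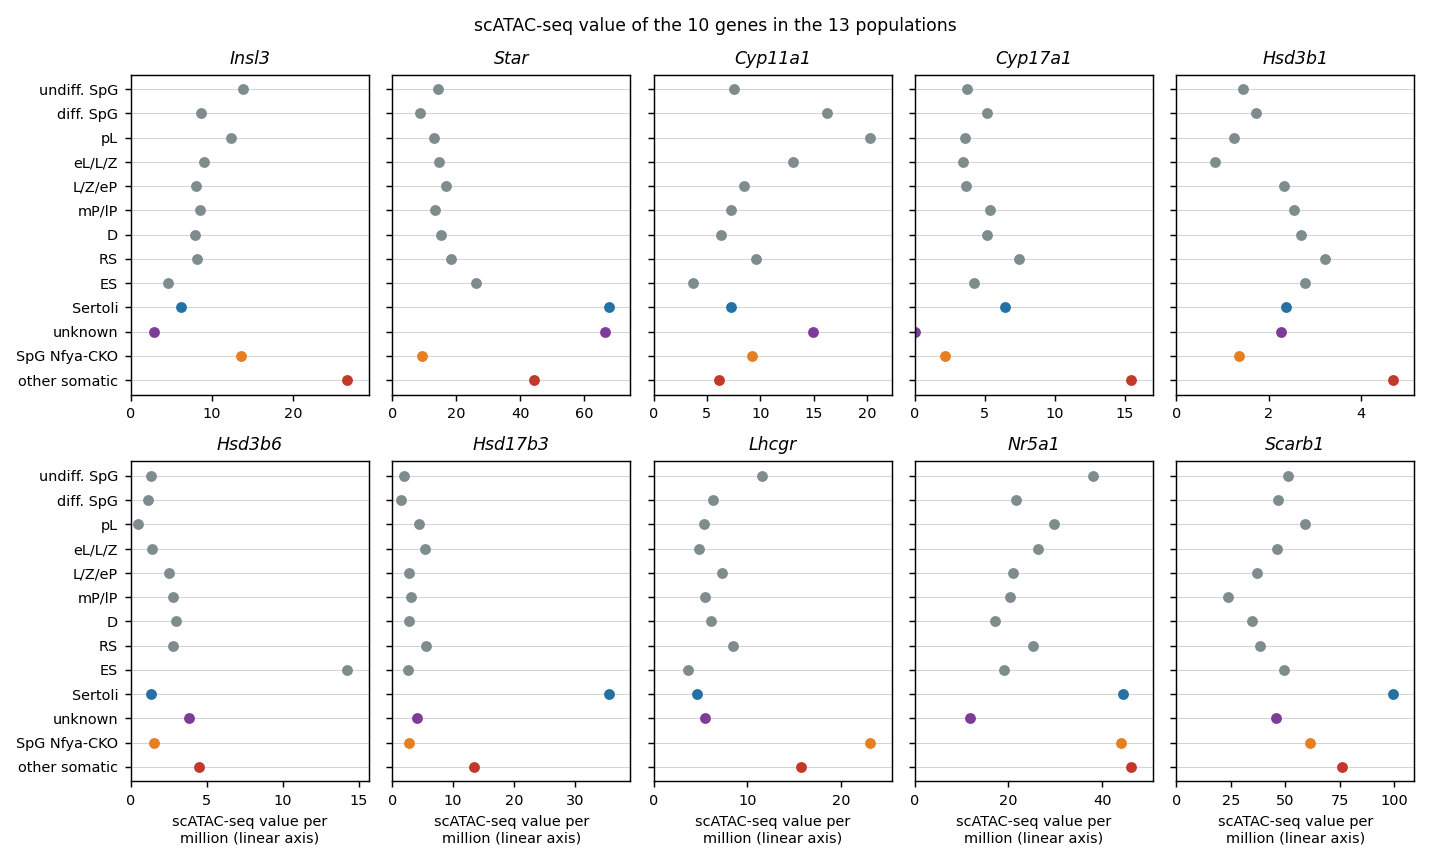
scATAC-seq value over nuclear genes, scaled to 1000000 per population (linear axis from 0, 1 panel per gene) in the 13 populations; each point is 1 pooled value. Other somatic cells (red) lead for Insl3, Cyp17a1, Hsd3b1 and Nr5a1, Sertoli cells (blue) for Star, Hsd17b3 and Scarb1, and pL for Cyp11a1.

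The spermatogonial columns were then compared for chromatin. There, none of the 10 genes was at least 2-fold higher in SpG Nfya-CKO than in undiff. SpG, against 4.47% of genes. With so low a share, this count does not set the 10 genes apart from all genes. The median log2 ratio was 0.16 against 0.09 for all genes. The ratio was 0.984 for Insl3, whose RNA ratio was 243, and 0.670 for Cyp17a1, whose RNA ratio was 62.0. The chromatin ratio was 0.669 for Star, 0.964 for Hsd3b1, 1.08 for Hsd3b6, 1.15 for Nr5a1, 1.18 for Scarb1, 1.20 for Cyp11a1 and 1.30 for Hsd17b3. Lhcgr had the highest chromatin ratio, 1.91; its RNA ratio depends on the pseudocount and is not set beside it.

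**Figure D5:**
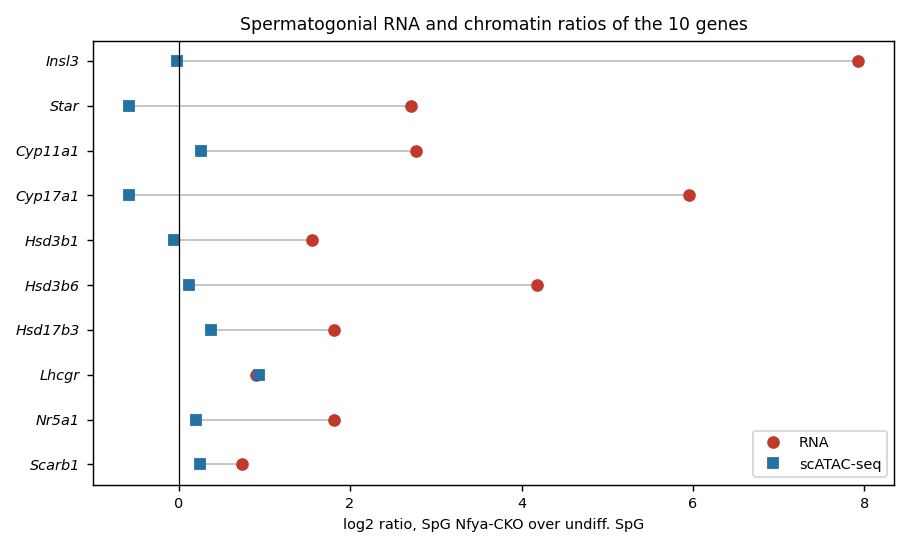
log2 ratio of SpG Nfya-CKO over undiff. SpG for RNA (red circles, pseudocount 0.1 per 10000) and scATAC-seq (blue squares, pseudocount 1), 1 row per gene. RNA ratios run from 0.74 (Scarb1) to 7.93 (Insl3), whereas chromatin ratios run from -0.58 (Star) to 0.94 (Lhcgr).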

How the data were processed

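Nuclei of mouse testis were profiled by the authors with BD Rhapsody scRNA-seq and scATAC-seq. Per the labels and methods, RNA reads were mapped to mm10 (STAR 2.7.10b, uniquely mapped reads), UMIs were collapsed, doublets were called, and cells were named in Seurat 5.2.1. Open-chromatin reads were mapped with BWA 0.7.12, shifted for Tn5 and filtered in ArchR 1.0.3. The deposited matrices hold the natural log of 1 plus a level, with a sum of 10000 per population, and exp(value) - 1 was used. The methods define promoter accessibility as mean coverage in a narrow window around the start site, for pooled tracks; whether the deposited gene matrix counts that window is not given in the sources used here. The deposited cell tables hold counts of UMIs, genes and fragments, the percent of mitochondrial UMIs and, as a ratio, the TSS enrichment of each cell. The share of mitochondrial genes in each RNA column equalled the mean over cells of that percent, so cells weigh equally. In the tables, cells had at least 488 genes and at most 5.00% mitochondrial UMIs (45250 cells, 49 of them with no library name), and 343866 nuclei had at least 1000 fragments.

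Levels, ratios (RNA pseudocount 0.1, scATAC-seq pseudocount 1), counts over genes with a mean of at least 0.05 (RNA) or 1 (scATAC-seq) and profile distances were computed in Python 3.11.15 with pandas and scipy, and tested on simulated data. Library depth was 30227701 to 64967271 UMIs. Intervals and the limit of 3 UMIs cover counting error only. All 10 genes are named with their values, at most 4 genes of each further list (those highest in other somatic cells, or counted), and the nearest genes by distance; a few genes that this rule takes are not reported here. The genes and lists were chosen with earlier results of these data known. Alternatives were other pseudocounts, filters, scalings and populations.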

Additional observations from a re-analysis of the deposited data

How the results depend on the processing

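Of 34 alternatives to 12 results, 22 stayed near the value reported (counts, percents, gene shares and median ratios within 1.5-fold, the share of cells within its 95% interval), and none turned a direction. With a pseudocount of 1 in place of 0.1, 5 genes (Insl3, Star, Cyp11a1, Cyp17a1 and Hsd3b6) were 2-fold above every other population, and 4 were with a fold of 4. The median log2 ratio of other somatic over Sertoli cells was 5.09 with a pseudocount of 0.01 and 1.65 with 1. With mitochondrial genes kept in the scATAC-seq sum, 2 genes (Insl3 and Cyp17a1) were highest in other somatic cells, and the median log2 ratio over undiff. SpG was 0.36. The share of other somatic cells from the Nfya-CKO library was 69.0% among cells of at least 1000 genes. In alternatives chosen after seeing the data, it was 51.9% without barcodes shared by the 8-week libraries and 67.5% without the shallower copy of each, and with a pseudocount of 1 in place of 0.1, 3 genes were at least 2-fold higher in SpG Nfya-CKO than in undiff. SpG. Without a filter on the mean, 0.583% of all genes were 2-fold above every other population. By Euclidean distance of centred log2 values, 3 of the 10 nearest genes, Apoe and Tmem176b among them, were shared. For these changes the cause was not tested, beyond what each setting leaves out or adds by its construction. No paired analysis was possible because each condition had 1 library per assay. Depth limits the unknown column most in both assays (99 cells with 743145 UMIs, and 54 nuclei with 693051 fragments).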
